A study of Mus musculus with 12 samples.

Results

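Foxp3- effector CD4+ T cells (Teff) that had spent 3 days with antibodies against CD3 and CD28 were compared with fresh Teff cells, which are the control. The comparison uses 4 of the 12 arrays in the series, chosen by the group named in each sample title, with 2 arrays in each group. The anti-CD3-CD28 Teff cells came from cultures of splenic CD4+ cells given 2 µg/ml of each antibody, and were sorted afterwards as cells without Foxp3. The control Teff cells were sorted in the same way from fresh spleen and were labelled untreated. All groups came from 8-week-old C57BL/6-Foxp3.GFP mice, in which a green fluorescent reporter marks cells that express Foxp3, the transcription factor that defines regulatory T cells (Treg). The 2 anti-CD3-CD28 Treg and 2 control Treg arrays, from the Foxp3+ cells of the same kinds of sample, served to set the Teff response beside a Treg response. The OX40L-JAG1 Teff and Treg arrays (5 µg/ml OX40L and 1 µg/ml JAG1 for 3 days) entered the estimate of the spread and, for genes with several rows on the array, the choice of the row.

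Culture and antibodies change together in this comparison, and their effects cannot be told apart. Teff and Treg cells shared the culture before the sort, and the Foxp3- gate holds every other CD4+ cell of the spleen, resting or already activated. Replicates are named 1 and B, and nothing in the labels says whether they were separate mice or cultures. Every p-value thus rests on a spread between samples that may be only technical, and precision is limited by how few arrays there are.

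An antibody against CD3 engages the T cell receptor complex, and an antibody against CD28 gives the costimulatory signal that a resting T cell needs to divide. As textbook background, a T cell activated in this way turns down the genes of the resting state, displays the high-affinity receptor for interleukin 2, takes up glucose, builds sterols and nucleotides, replicates its DNA and divides. Over days it also acquires effector genes, among them those of cytokines and of cytotoxic granules.

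Each gene was represented by 1 row of the array, and its level is a log2 intensity, so that a difference of 1 is a doubling of signal. Levels of different genes are not compared, because every row has probes of its own. Foxp3 itself read 5.58 and 5.72 in anti-CD3-CD28 Teff cells, against 5.66 and 5.66 in control Teff cells. It read 11.22 and 11.02 in anti-CD3-CD28 Treg cells, against 10.38 and 10.36 in control Treg cells, so the 4 Teff arrays lay far below the 4 Treg arrays. Cd4, the coreceptor that defined the starting cells, read 9.86 and 9.97 in anti-CD3-CD28 Teff cells, against 11.84 and 11.93 in control Teff cells. Cd3e, a chain of the receptor complex that the antibody binds, read 10.63 and 10.53 in anti-CD3-CD28 Teff cells, against 11.83 and 11.93 in control Teff cells. Both were present in both groups and fell in anti-CD3-CD28 Teff cells (adjusted p = 0.000179 for Cd4 and 0.000787 for Cd3e). The OX40L-JAG1 Teff arrays vary more than the others: the SD of the difference between their replicates was 0.81, against 0.234 to 0.362 in the other groups. They widen the spread that every test uses, and counts that leave them out are therefore added below. The files carry no detection calls, and 4.87, the lowest of the array medians, serves as the bound under which a group's mean is not shown to be above background. A difference from such a mean is given as a lower bound ("at least").

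Of 22180 genes, 3369 (15.2%) had an adjusted p under 0.05 in limma and are called changed. They comprised 1206 genes that were higher (5.44%) and 2163 that were lower (9.75%) in anti-CD3-CD28 Teff cells. Both arrays of one group lay above both of the other in every called gene, but they did so in 14110 of the 22180 genes, so with 2 arrays a group this separation is common. Without the OX40L-JAG1 Teff arrays 6421 genes (28.9%) were called, 2770 higher and 3651 lower. With 1 of the 4 Teff arrays left out, 1425 (without control Teff B), 1528 (without control Teff 1), 1780 (without anti-CD3-CD28 Teff 1) or 2261 (without anti-CD3-CD28 Teff B) were called, which assumes that the lone array left varies as the other groups do.

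Falls were more numerous, but rises were among changes of at least 2. Among called genes 776 rose and 1240 fell by at least 1 on the log2 scale, 233 rose and 124 fell by at least 2, and 71 rose and 34 fell by at least 3. The median difference over all genes was 0.07. The share of called genes that were higher was 35.8% on the deposited scale, 44.2% after quantile normalization, 26.9% after scaling to a common median, which moved the median of all genes to -0.04, and 51.2% once the trend of the difference with level was removed. This trend touches every count of lower genes below: genes of middle to high level mostly had less signal in the anti-CD3-CD28 Teff arrays, whose upper quartiles were 6.64 and 6.74, against 6.90 and 6.92 in the control Teff arrays. These are relative levels in bulk RNA, in which fewer cells of a type and less RNA per cell cannot be told apart.

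**Figure D1:**
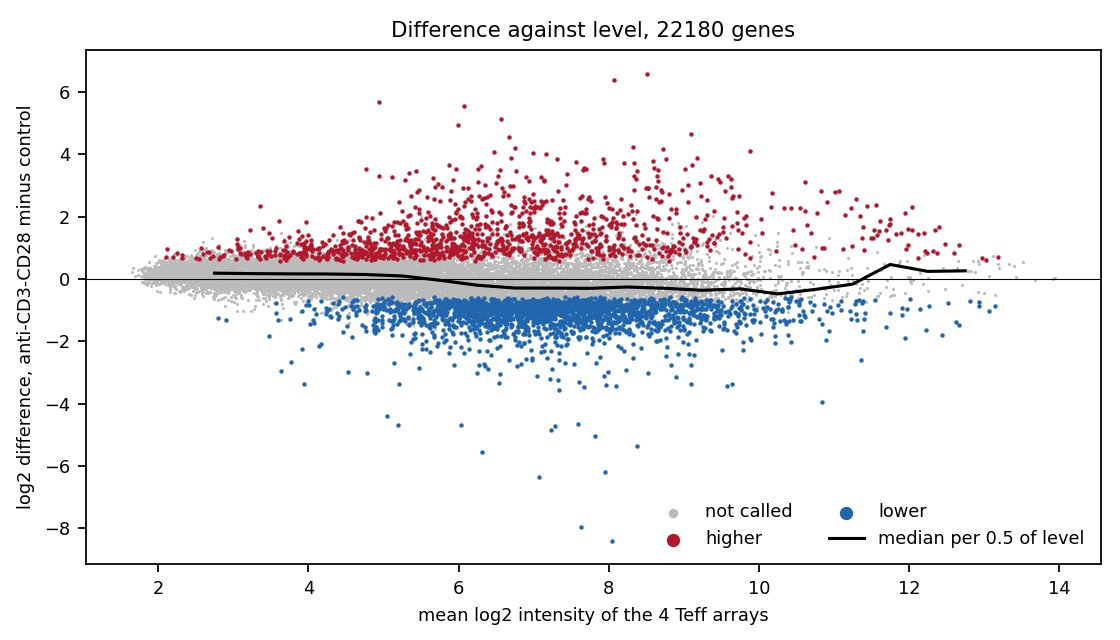
Difference in log2 intensity (anti-CD3-CD28 Teff minus control Teff, vertical axis) against the mean log2 intensity of the 4 Teff arrays (horizontal axis) for 22180 genes. Red points are the 1206 genes called higher, blue points the 2163 called lower, and the black line is the median of all genes in steps of 0.5 on the horizontal axis. The line lies below 0 over the middle of the range and above 0 for dim genes and for the brightest ones.

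Leaving aside predicted genes, antibody and T cell receptor segments and small RNAs other than microRNAs and Y RNAs, the 12 largest rises with separate groups included 2 granzymes, 3 cytokines and the high-affinity chain of the interleukin 2 receptor. Gzmb, a serine protease of cytotoxic granules, read 11.75 and 11.86 in anti-CD3-CD28 Teff cells, against 5.31 and 5.10 in control Teff cells. The 2 replicates of each group lay close together and the groups were far apart, with a difference of 6.60 ± 0.26 (SE here and below), or 96.9-fold (adjusted p = 2.06e-07). Gzma, a second granule protease, read 11.30 and 11.22 in anti-CD3-CD28 Teff cells, against 4.74 and 5.00 in control Teff cells, a difference of 6.39 ± 0.65 or 83.9-fold (adjusted p = 9.92e-05). Its control Teff mean lay at the bound of 4.87, with control Teff 1 below it, so this fold is not exact. Il2ra, the chain that makes the interleukin 2 receptor high-affinity, read 11.36 and 11.47 in anti-CD3-CD28 Teff cells, against 6.64 and 6.90 in control Teff cells, a difference of 4.64 ± 0.27 or 25-fold (adjusted p = 3.64e-06). In all of these genes both anti-CD3-CD28 Teff arrays lay far above both control Teff arrays.

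The 3 cytokine genes were near or below the bound of 4.87 in control Teff cells. Il10, whose product restrains inflammation, read 8.96 and 9.30 in anti-CD3-CD28 Teff cells, against 3.88 and 4.14 in control Teff cells, which is at least 19.2-fold higher (adjusted p = 7.93e-07). Il13 read 8.88 and 9.02 in anti-CD3-CD28 Teff cells, against 4.30 and 4.50 in control Teff cells, at least 16.9-fold higher. Il4 read 8.53 and 8.76 in anti-CD3-CD28 Teff cells, against 4.88 and 4.64 in control Teff cells, at least 13.7-fold higher. Il4 and Il13 encode the signature cytokines of type 2 helper cells. On all 3 genes the anti-CD3-CD28 Teff arrays were high and the control Teff arrays low.

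The other 6 of the 12 largest rises have varied functions. Ifi204, a DNA-sensing protein of the interferon-inducible PYHIN family, read 7.83 and 7.75 in anti-CD3-CD28 Teff cells, against 2.01 and 2.18 in control Teff cells, at least 7.6-fold higher. Cysltr1, a receptor for cysteinyl leukotrienes, read 8.39 and 8.55 in anti-CD3-CD28 Teff cells, against 3.67 and 3.36 in control Teff cells, at least 12.2-fold higher. Pros1, which encodes the anticoagulant protein S, also a ligand of the TAM receptors, read 9.01 and 8.72 in anti-CD3-CD28 Teff cells, against 4.66 and 4.64 in control Teff cells, at least 16-fold higher. Bnip3, a mitochondrial protein of the hypoxia response, read 9.02 and 9.33 in anti-CD3-CD28 Teff cells, against 5.22 and 5.08 in control Teff cells, a difference of 4.03 ± 0.21 or 16.3-fold. These genes, like all 12, were named by a rule that required separate groups. The histone gene H2bc9 read 8.68 and 8.35 in anti-CD3-CD28 Teff cells, against 4.22 and 4.62 in control Teff cells, at least 12.5-fold higher. The microRNA gene Mir1983 was at least 15.8-fold higher and is described with its family below.

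Among the 12 largest falls, chosen by the same rule, the inducible 70 kDa heat shock genes stood first. Hspa1b read 3.45 and 4.23 in anti-CD3-CD28 Teff cells, against 12.27 and 12.23 in control Teff cells, at least 167-fold lower (adjusted p = 6.35e-07). Hspa1a read 3.78 and 3.51 in anti-CD3-CD28 Teff cells, against 11.60 and 11.61 in control Teff cells, at least 107-fold lower (adjusted p = 2.76e-08). These genes are near-identical copies whose rows may share signal, and they count as 1 observation rather than 2. Both lay below the bound in the anti-CD3-CD28 Teff arrays and far above it in the control Teff arrays.

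Several of the other large falls concern adhesion, the cytoskeleton and membrane transport. Actn1, an actin crosslinker, read 7.72 and 8.01 in anti-CD3-CD28 Teff cells, against 11.27 and 11.31 in control Teff cells (a difference of -3.43 ± 0.18). Itga4, the integrin chain of the VLA-4 receptor, read 7.34 and 7.49 in anti-CD3-CD28 Teff cells, against 10.84 and 10.74 in control Teff cells (-3.38 ± 0.18). Atp1b1, a subunit of the sodium pump, read 5.81 and 6.06 in anti-CD3-CD28 Teff cells, against 9.49 and 9.34 in control Teff cells (-3.48 ± 0.21). For each of these genes both control Teff arrays lay more than 3 log2 units above both anti-CD3-CD28 Teff arrays. Ehd3, an endosomal recycling protein, read 6.54 and 6.22 in anti-CD3-CD28 Teff cells, against 9.79 and 9.84 in control Teff cells (-3.43 ± 0.25). St8sia6, a sialyltransferase, read 6.28 and 6.26 in anti-CD3-CD28 Teff cells, against 9.61 and 9.72 in control Teff cells (-3.39 ± 0.17), and Slc16a5, of the monocarboxylate transporter family, read 5.27 and 5.83 in anti-CD3-CD28 Teff cells, against 8.93 and 9.31 in control Teff cells (-3.57 ± 0.31). Tespa1, known for T cell receptor signalling in thymocytes, read 5.81 and 6.09 in anti-CD3-CD28 Teff cells, against 9.23 and 9.30 in control Teff cells (-3.31 ± 0.33). The falls were of much the same size. Jun, a component of AP-1, differed by -3.37 ± 0.24 and is described with the immediate early genes. Jchain, the joining chain of secreted antibodies, read 4.64 and 4.96 in anti-CD3-CD28 Teff cells, against 9.68 and 9.65 in control Teff cells, at least 27-fold lower. Eif2s3y, a Y-linked translation factor subunit, read 3.63 and 3.42 in anti-CD3-CD28 Teff cells, against 6.91 and 6.88 in control Teff cells, at least 4.08-fold lower. The markers of other cells and the other Y-linked genes are given near the end.

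**Figure D2:**
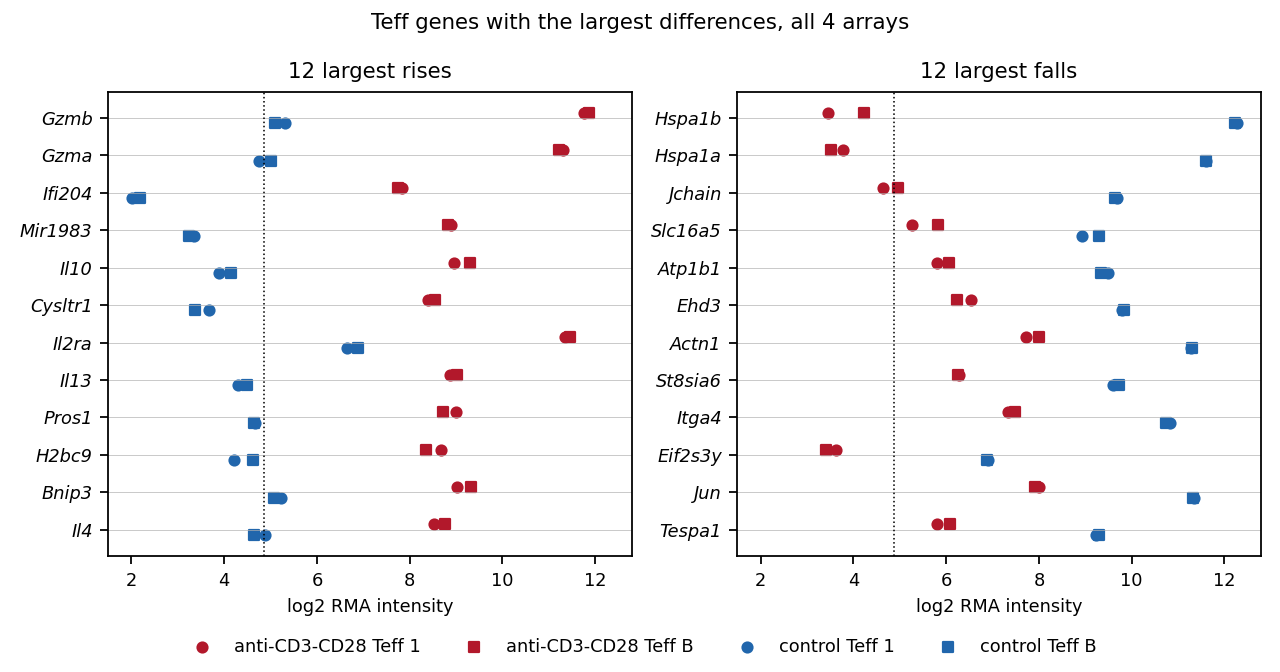
Log2 intensity on each array for the 12 largest called rises (left) and the 12 largest called falls (right) whose groups do not overlap. Red marks anti-CD3-CD28 Teff and blue control Teff, with circles for replicate 1 and squares for replicate B, and the dotted line is the lowest array median, 4.87. The symbols of one colour lie close together beside the gap between colours.

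Genes of cell division rose nearly as a block. Of 45 measured genes of mitosis and chromosome segregation, 41 rose, against 5.44% of all genes, and 0 fell (1 at an unadjusted p under 0.05); their median difference was 1.71, beside 0.07 over all genes. Cdk1, the kinase that drives entry into mitosis, read 9.02 and 9.02 in anti-CD3-CD28 Teff cells, against 6.42 and 6.45 in control Teff cells, a difference of 2.58 ± 0.47 (adjusted p = 0.00339). Top2a, which untangles DNA before segregation, read 9.84 and 10.06 in anti-CD3-CD28 Teff cells, against 7.43 and 7.44 in control Teff cells (2.52 ± 0.22; adjusted p = 3.29e-05). Cenpe, a kinetochore motor, read 8.57 and 8.75 in anti-CD3-CD28 Teff cells, against 6.17 and 6.08 in control Teff cells (2.54 ± 0.20). In these genes both control Teff arrays lay more than 2 log2 units below both anti-CD3-CD28 Teff arrays. Birc5, or survivin, a subunit of the chromosomal passenger complex, was at least 6.56-fold higher. Mki67, the proliferation marker Ki-67, read 9.99 and 10.14 in anti-CD3-CD28 Teff cells, against 8.47 and 8.47 in control Teff cells, a difference of 1.60 ± 0.39 (adjusted p = 0.0179). Ccnb2 (1.30 ± 0.42), Cenpa (0.97 ± 0.31), Mybl2 (0.35 ± 0.20) and Smc4 (-0.61 ± 0.23) were not called.

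Genes of DNA replication and nucleotide synthesis were less uniformly called. Of 52 measured, 24 rose and 2 fell, with a median difference of 0.73, and leaving out the OX40L-JAG1 Teff arrays gave 35 rises and 4 falls; 11 rose when control Teff 1, control Teff B or anti-CD3-CD28 Teff B was left out, and 16 without anti-CD3-CD28 Teff 1. Rrm2, the inducible subunit of ribonucleotide reductase, read 7.84 and 7.86 in anti-CD3-CD28 Teff cells, against 6.05 and 5.98 in control Teff cells, a difference of 1.83 ± 0.31 (adjusted p = 0.00207). Cdc6 (1.30 ± 0.20), a loader of the replicative helicase, Tk1 (1.44 ± 0.20), thymidine kinase, and Tyms (1.13 ± 0.25), thymidylate synthase, rose as well. None of the replicative helicase subunits Mcm2, Mcm3, Mcm4, Mcm5, Mcm6 and Mcm7 was called, with differences between -0.08 for Mcm2 and 0.90 for Mcm6, and Pcna, the sliding clamp, differed by 0.42 ± 0.29 (adjusted p = 0.408). The 2 genes that fell were Gart (-1.17 ± 0.20) and Cad (-0.95 ± 0.27), enzymes of de novo purine and pyrimidine synthesis. Dimmer rows of Gart differed by 0.11 and 0.28 and were not called.

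Among 25 genes of G1 control, 8 rose and 2 fell (median 0.37), and the rises included inhibitors as well as drivers of the cycle. Without 1 array, 7 (anti-CD3-CD28 Teff 1), 5 (control Teff B) or 4 (each of the other 2 Teff arrays) rose and 0 fell. Cdkn1a, the p21 inhibitor of cyclin-dependent kinases, read 8.32 and 8.30 in anti-CD3-CD28 Teff cells, against 4.61 and 4.99 in control Teff cells, at least 10.4-fold higher (adjusted p = 4.51e-06). The inhibitors of the INK4 family Cdkn2a (1.71 ± 0.21), Cdkn2b (1.22 ± 0.23) and Cdkn2c (1.34 ± 0.21) also rose, as did cyclin E1, Ccne1 (1.24 ± 0.25), and the kinase gene Cdk6 (0.87 ± 0.20). The restraint genes Rb1 (-0.91 ± 0.26) and Rbl2 (-0.76 ± 0.21) fell, and Myc, a driver of growth that peaks early after activation, also fell: it read 7.44 and 7.64 in anti-CD3-CD28 Teff cells, against 8.36 and 8.29 in control Teff cells (adjusted p = 0.0289). Ccnd2 (-0.69 ± 0.30), Ccnd3 (-0.18 ± 0.19) and Cdkn1b (-0.17 ± 0.24), the p27 inhibitor, were not called.

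The promoters of these families carry sequence features that the array values did not choose. Promoter windows of 300 bases, 250 before and 50 after the annotated start, were taken from RefSeq (GRCm38.p6) for 16918 of the tested genes and searched on both strands. Words of the sterol element, the amino acid response and the E box were searched too, and their shares are not given here. The cell cycle homology region (TTTGAA or TTCGAA) is known as a site of the complex that silences mitotic genes in resting cells, and CCAAT boxes bind the activator NF-Y. Of 33 mitotic genes called higher that have a window, 81.8% held the first and 69.7% the second, against 17.3% and 38.4% of all windows, and 66.7% held both, against 7.08%. Over all 36 members with a window, called or not, the shares were 80.6% and 69.4%. Since 33 of the 36 were called higher, these shares say little about members that were not called. Of all 876 called-higher windows 23.9% held the homology region, and of 1727 called-lower windows 12.2% did. The windows of Cdk1 (chr10:69352863-69353162, minus strand) and Top2a (chr11:99024140-99024439, minus strand) are shown as members with both features, and their differences lie above the median of the family; capitals mark CCAAT (read as ATTGG on the other strand) and the homology region (TTTGAA, which the other strand reads as TTCAAA, or its variant with C as the third base). No searched word contains another.
Cdk1: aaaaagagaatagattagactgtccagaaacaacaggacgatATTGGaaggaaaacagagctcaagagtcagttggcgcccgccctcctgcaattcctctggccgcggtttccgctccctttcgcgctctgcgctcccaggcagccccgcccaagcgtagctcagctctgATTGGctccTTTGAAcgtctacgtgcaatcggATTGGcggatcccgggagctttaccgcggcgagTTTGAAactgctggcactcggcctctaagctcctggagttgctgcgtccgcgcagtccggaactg
Top2a: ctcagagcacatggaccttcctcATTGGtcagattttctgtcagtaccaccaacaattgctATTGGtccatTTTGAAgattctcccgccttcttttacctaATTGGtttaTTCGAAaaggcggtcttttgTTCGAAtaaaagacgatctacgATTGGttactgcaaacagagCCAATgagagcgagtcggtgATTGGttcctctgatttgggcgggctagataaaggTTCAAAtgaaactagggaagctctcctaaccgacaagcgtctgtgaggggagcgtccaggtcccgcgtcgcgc
In Cdk1 the homology region lies 71 and 15 bases before the start, with CCAAT boxes at 208, 80 and 48 bases before it. Top2a has 6 CCAAT boxes and 4 matches of the homology region, the nearest 23 bases before the start. A match is a description of letters and not proof of a bound site.

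For 19 replication genes called higher with a window, an E2F word (TTTCCCGC, TTTGGCGC or TTTCGCGC), the letters through which E2F factors act on S phase genes, was present in 26.3%, against 2.52% of all windows; over all 44 members the share was 34.1%. For 19 glycolysis and hypoxia genes called higher, the core of the hypoxia response element (TACGTG or GACGTG) was present in 52.6%, against 10.2% of all windows, and in 57.7% of all 26 members. For 12 interferon-stimulated genes called higher, the word AAANNGAAA of interferon response elements was present in 83.3%, against 9.77%, and in 74.1% of all 27 members. Slc16a3, the lactate exporter (chr11:120948817-120949116, plus strand), and Ifitm3, an antiviral membrane protein (chr7:141010695-141010994, minus strand), illustrate the last 2 families, with the matches in capitals.
Slc16a3: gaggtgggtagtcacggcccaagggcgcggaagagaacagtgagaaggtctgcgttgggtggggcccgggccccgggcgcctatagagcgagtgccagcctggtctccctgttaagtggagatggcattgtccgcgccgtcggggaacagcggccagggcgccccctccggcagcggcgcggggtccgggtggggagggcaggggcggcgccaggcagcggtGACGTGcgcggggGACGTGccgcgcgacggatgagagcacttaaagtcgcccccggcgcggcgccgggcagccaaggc
Ifitm3: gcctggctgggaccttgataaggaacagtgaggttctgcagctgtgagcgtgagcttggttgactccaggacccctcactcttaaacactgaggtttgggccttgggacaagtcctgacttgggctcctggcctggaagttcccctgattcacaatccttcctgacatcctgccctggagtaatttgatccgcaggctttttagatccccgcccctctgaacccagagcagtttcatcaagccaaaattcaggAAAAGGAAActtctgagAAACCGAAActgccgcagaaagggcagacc
Slc16a3 has GACGTG at 28 and 15 bases before its start, and Ifitm3 has its 2 matches just after its start.

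**Figure D3:**
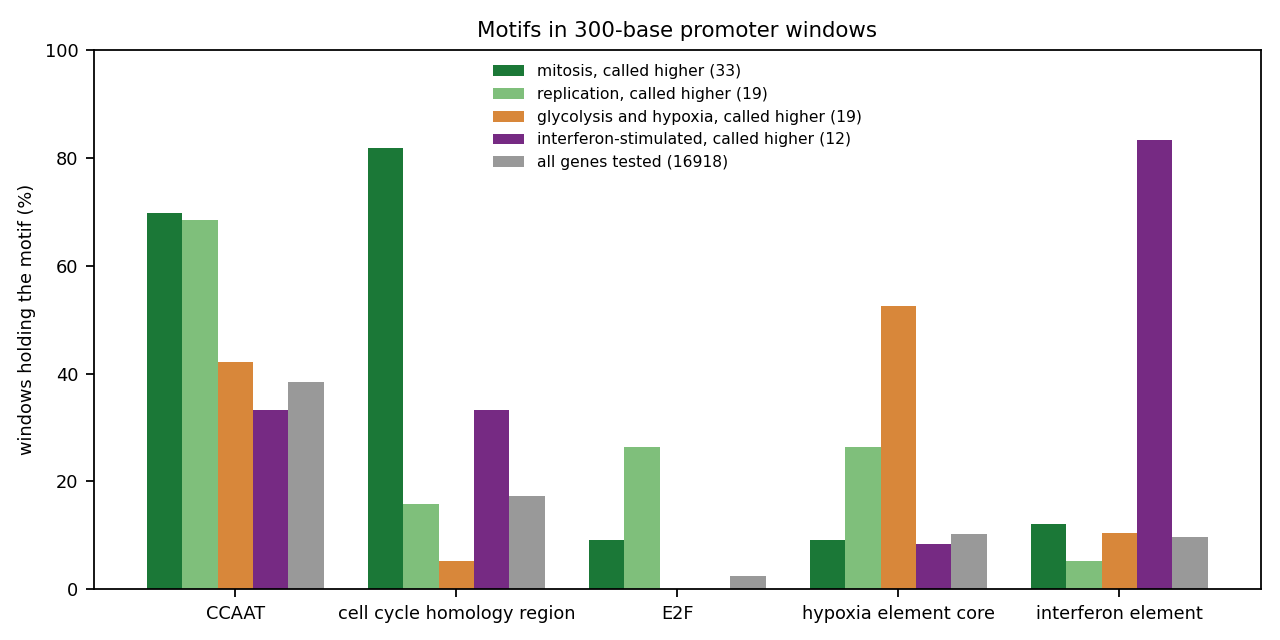
Percent of 300-base promoter windows that hold each motif (vertical axis) among called-higher members of the mitosis (33), replication (19), glycolysis (19) and interferon (12) groups and among all tested genes with a window (16918). The homology region stands at 81.8% in mitosis, the hypoxia core at 52.6% in glycolysis and the interferon word at 83.3% in the interferon group.

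Most of the glycolysis and hypoxia genes rose. Of 27 measured, 20 rose and 0 fell (0 also at an unadjusted p under 0.05), with a median difference of 1.54, and the count stayed between 18 and 19 with any 1 of the 4 Teff arrays left out. Slc16a3, whose promoter is shown above, read 8.43 and 8.57 in anti-CD3-CD28 Teff cells, against 5.37 and 5.37 in control Teff cells, a difference of 3.13 ± 0.19 or 8.76-fold (adjusted p = 3.79e-06). Hk2, the inducible hexokinase that traps glucose, read 8.20 and 8.24 in anti-CD3-CD28 Teff cells, against 5.02 and 5.43 in control Teff cells (2.99 ± 0.23; adjusted p = 1.48e-05). Egln3, an oxygen-sensing prolyl hydroxylase that is itself a target of HIF-1, read 9.13 and 9.34 in anti-CD3-CD28 Teff cells, against 5.33 and 5.46 in control Teff cells (3.84 ± 0.29). Replicates lay close together in these genes beside the gap between groups. The glucose transporters Slc2a3 (2.28 ± 0.22) and Slc2a1 (1.49 ± 0.21), the angiogenic factor Vegfa (2.92 ± 0.24), the kinase gene Pgk1 (2.28 ± 0.19) and Hif1a (1.54 ± 0.24), the oxygen-regulated factor itself, rose too. Gapdh, a glycolytic enzyme often used as a reference, was not called: it read 11.93 and 12.14 in anti-CD3-CD28 Teff cells, against 12.03 and 12.09 in control Teff cells (adjusted p = 0.96). Ldha, lactate dehydrogenase A, was not called (0.30 ± 0.19).

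Several sterol synthesis genes rose while several regulators of lipid supply fell. Of 34 genes of cholesterol and fatty acid synthesis, 15 rose and 4 fell (median 0.58), and 12 rose with any 1 of the 4 Teff arrays left out. Hmgcs1, the synthase ahead of the rate-limiting step, read 9.98 and 10.37 in anti-CD3-CD28 Teff cells, against 7.30 and 7.56 in control Teff cells, a difference of 2.74 ± 0.29 (adjusted p = 0.000109). Fads2, a fatty acid desaturase, read 8.75 and 8.73 in anti-CD3-CD28 Teff cells, against 5.42 and 5.49 in control Teff cells (3.29 ± 0.38), and Scd1, the stearoyl desaturase, read 7.51 and 7.69 in anti-CD3-CD28 Teff cells, against 5.06 and 4.83 in control Teff cells (2.66 ± 0.31). Fdps (2.57 ± 0.27), Lss (2.27 ± 0.24) and Sqle (2.26 ± 0.37), later enzymes of the same pathway, rose. Scap (-1.39 ± 0.23), the escort of the SREBP factors, Acss2 (-1.21 ± 0.22), which makes acetyl-CoA from acetate, Mylip (-1.10 ± 0.18), which degrades the LDL receptor, and the sterol exporter Abcg1 (-0.85 ± 0.20) fell; the 4 falls became 2 after quantile normalization or without control Teff B. Srebf2, the sterol-sensing factor, was not called (-0.11 ± 0.20). Scap has another, dimmer row on the array, which differed by 0.63 and was not called.

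In other metabolic groups the share called was near the 15.2% of all genes: 20.5% for amino acid supply, 15.0% for oxidative phosphorylation and 14.3% for the proteasome. Of 39 genes of amino acid supply and the integrated stress response, 5 rose, among them Psat1 (1.43 ± 0.18) of serine synthesis, Asns (1.25 ± 0.20) of asparagine synthesis and the mitochondrial folate enzyme Mthfd2 (1.03 ± 0.26), and 3 transporters fell: Slc1a5 (-1.07 ± 0.26), Slc7a6 (-0.93 ± 0.20) and Slc38a1 (-0.70 ± 0.18). These counts were 2 or 3 rises and 0 or 1 falls with 1 Teff array left out, and 11 and 6 without the OX40L-JAG1 Teff arrays. A dimmer row of Slc1a5 differed by -0.20 and was not called. Of 40 genes of oxidative phosphorylation and the TCA cycle 2 rose and 4 fell (median 0.11), and Idh2, the mitochondrial isocitrate dehydrogenase, fell (-1.20 ± 0.19, adjusted p = 0.00178). With any 1 of the 4 Teff arrays left out 0 rose, and 1 fell (3 without anti-CD3-CD28 Teff B). Of 35 proteasome subunits 4 rose and 1 fell, with a median of 0.54; this count depends on the fit, with 13 rises after quantile normalization, 19 without the OX40L-JAG1 Teff arrays and 0 without control Teff B.

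Some interferon-stimulated genes rose. Of 37 measured, 17 rose and 0 fell (0 also at an unadjusted p under 0.05), with a median of 0.84; 10 rose without control Teff 1, and leaving out the OX40L-JAG1 Teff arrays gave 24 rises and 1 fall. Ifitm3, shown above, read 10.37 and 10.42 in anti-CD3-CD28 Teff cells, against 6.69 and 6.96 in control Teff cells, a difference of 3.57 ± 0.42 (adjusted p = 0.000252). Iigp1, an immunity-related GTPase, read 10.18 and 10.29 in anti-CD3-CD28 Teff cells, against 7.22 and 6.97 in control Teff cells (3.15 ± 0.24; adjusted p = 1.57e-05). Isg15, a ubiquitin-like modifier, read 7.87 and 8.02 in anti-CD3-CD28 Teff cells, against 6.36 and 6.42 in control Teff cells (1.56 ± 0.30). The anti-CD3-CD28 Teff arrays were the higher ones for all 3. The interferon targets Ifit1 (0.61 ± 0.26), Ifit3 (0.64 ± 0.28), Rsad2 (0.48 ± 0.20) and Irf7 (0.22 ± 0.22) were not called, whereas Stat2 (1.31 ± 0.26) and the GTPase genes Gbp3 (2.16 ± 0.34) and Igtp (1.19 ± 0.24) rose.

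Several receptors displayed on activated T cells rose. Of 22 genes of activation and costimulatory receptors, 9 rose and 4 fell (median 0.22). Besides Il2ra, 4 receptors of the TNF receptor family rose by more than 2. Tnfrsf8, or CD30, read 8.46 and 8.61 in anti-CD3-CD28 Teff cells, against 5.22 and 5.32 in control Teff cells (3.26 ± 0.25). Tnfrsf4, the OX40 receptor, read 9.91 and 10.01 in anti-CD3-CD28 Teff cells, against 6.76 and 6.76 in control Teff cells (3.20 ± 0.25; adjusted p = 1.75e-05). Tnfrsf9, or 4-1BB, read 10.16 and 10.04 in anti-CD3-CD28 Teff cells, against 7.23 and 7.07 in control Teff cells (2.95 ± 0.18). The anti-CD3-CD28 Teff arrays lay well above the control Teff arrays in each. Tnfrsf18, or GITR, differed by 2.13 ± 0.40, the CD28-family receptor Icos by 1.93 ± 0.23 and the transferrin receptor Tfrc by 1.92 ± 0.23. The falls were Cd27 (-2.76 ± 0.29), a costimulator of resting cells, Cd226 (-2.14 ± 0.30), the early activation antigen Cd69 (-1.09 ± 0.30) and Cd86 (at least 1.08-fold lower); these 4 became 2 with any 1 of the 4 Teff arrays left out.

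The interleukin 2 receptor, STAT5 and SOCS group of 18 genes had 8 rises and 2 falls (median 0.47). Il2rb, the beta chain shared by the receptors for interleukins 2 and 15, read 10.96 and 11.04 in anti-CD3-CD28 Teff cells, against 9.05 and 9.09 in control Teff cells (1.93 ± 0.25; adjusted p = 0.000422). The feedback inhibitors of cytokine signalling Socs2, at least 4.55-fold higher, Cish (2.17 ± 0.19) and Socs1 (1.35 ± 0.27) rose, as did the kinase gene Pim1 (1.07 ± 0.19). Il2 itself, the cytokine, read 2.94 and 3.13 in anti-CD3-CD28 Teff cells, against 3.46 and 3.06 in control Teff cells, below the bound in both groups. Stat5a (-0.70 ± 0.19) and Jak1 (-1.43 ± 0.18), signal carriers of the receptor, fell; 1 fell when control Teff 1, control Teff B or anti-CD3-CD28 Teff 1 was left out.

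Effector cytokine genes of several helper types rose. Of 30 measured, 12 rose and 1 fell (median 0.90). With 1 Teff array left out, 9 (anti-CD3-CD28 Teff 1) or 7 (any other) rose and 0 fell; leaving out the OX40L-JAG1 Teff arrays gave 18 rises. Besides Il10, Il13 and Il4, Ifng, the signature cytokine of type 1 helper cells, read 7.54 and 7.74 in anti-CD3-CD28 Teff cells, against 4.98 and 5.10 in control Teff cells, a difference of 2.60 ± 0.21 or 6.06-fold (adjusted p = 1.93e-05). Lif (1.91 ± 0.20) and Osm (1.48 ± 0.20), cytokines of the interleukin 6 family, rose, and Il17a (5.15 and 5.31 in anti-CD3-CD28 Teff cells and 3.85 and 4.08 in control Teff cells) rose to just above the bound. Il3 and Csf2 were called higher but lay below the bound in both groups. Ltb, lymphotoxin beta, fell (-0.82 ± 0.21), and Tnf (-0.48 ± 0.31), Il21 (0.32 ± 0.19), Il5 and Tgfb1 (-0.46 ± 0.18) were not called.

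Lineage regulators moved in both directions. Of 43 T helper regulators and cytokine receptors 14 rose and 13 fell (median 0.24); without control Teff 1 or control Teff B 9 rose and 8 fell. Il12rb2, the chain that makes a T cell respond to interleukin 12, read 9.79 and 9.92 in anti-CD3-CD28 Teff cells, against 5.86 and 6.12 in control Teff cells, a difference of 3.86 ± 0.28 (adjusted p = 1.25e-05). Nfil3, a basic leucine zipper factor of cytokine genes, read 9.32 and 9.55 in anti-CD3-CD28 Teff cells, against 5.94 and 5.43 in control Teff cells (3.75 ± 0.21), and Prdm1, or Blimp-1, which promotes effector differentiation and interleukin 10, read 7.79 and 7.85 in anti-CD3-CD28 Teff cells, against 5.67 and 5.91 in control Teff cells (2.03 ± 0.23). Bhlhe40 (2.85 ± 0.22), Maf (1.33 ± 0.18) and Irf4 (0.93 ± 0.18), factors of effector cells, rose as well. The master regulators themselves were not called: Tbx21, or T-bet, read 7.18 and 7.04 in anti-CD3-CD28 Teff cells, against 6.81 and 6.91 in control Teff cells (adjusted p = 0.514), and Gata3 differed by -0.00 ± 0.21. Among the members that fell were Cxcr5, a chemokine receptor for B cell follicles (-2.90 ± 0.27), the nuclear factor gene Tox (-2.79 ± 0.18), Id3, an inhibitor of E proteins (-2.02 ± 0.34), Bcl6, a repressor that directs follicular helper cells (-0.87 ± 0.20), and the cytokine receptor genes Il6st (-2.41 ± 0.30), Il27ra (-2.28 ± 0.23) and Tgfbr2 (-1.50 ± 0.19).

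Granzymes were the cytotoxic genes that rose. Of 20 granule and killing genes, 3 rose, namely Gzmb, Gzma and Gzmc, the last at least 4.03-fold higher, and 2 fell (median 0.11). The share called was 25.0%, beside 15.2% of all genes. Without anti-CD3-CD28 Teff 1, 2 rose and 0 fell, and 1 or 0 fell without the other Teff arrays. Prf1, the pore-forming perforin, read 7.06 and 7.19 in anti-CD3-CD28 Teff cells, against 7.50 and 7.38 in control Teff cells and was not called (adjusted p = 0.351). Fasl (0.26 ± 0.28), Nkg7 (0.49 ± 0.27) and Gzmk (0.04 ± 0.26) were not called either. Crtam (at least 2.05-fold lower), a receptor of cytotoxic cells, and Lamp1 (-0.69 ± 0.19), a lysosomal membrane protein, fell.

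Inhibitory receptors split evenly, with 5 of 18 higher and 5 lower (median 0.06, or -0.05 after scaling to a common median). Ctla4, which competes with CD28 for its ligands, read 9.77 and 9.84 in anti-CD3-CD28 Teff cells, against 6.15 and 5.99 in control Teff cells, a difference of 3.73 ± 0.23 or 13.3-fold (adjusted p = 4.03e-06). Havcr2, or TIM-3, was at least 7.11-fold higher, and Lag3 (2.10 ± 0.19), Tigit (2.47 ± 0.29) and the ectoenzyme gene Entpd1 (2.49 ± 0.21), or CD39, rose. With any 1 of the 4 Teff arrays left out, 5 rose as well. Pdcd1, or PD-1, read 6.84 and 6.85 in anti-CD3-CD28 Teff cells, against 6.71 and 6.55 in control Teff cells and was not called. Btla (-1.99 ± 0.24), Cd96 (-1.63 ± 0.33), Cd200 (-1.43 ± 0.17), Nt5e (-1.30 ± 0.24), or CD73, and Vsir (-0.67 ± 0.18), or VISTA, fell; 8 fell without the OX40L-JAG1 Teff arrays and 3 without anti-CD3-CD28 Teff 1 or control Teff B.

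Homing receptors moved in both directions. Of 21 chemokine receptors 5 rose and 5 fell (median -0.08). Cxcr6 read 10.30 and 10.30 in anti-CD3-CD28 Teff cells, against 7.17 and 6.79 in control Teff cells (3.32 ± 0.35), and Ccr8 read 8.55 and 8.89 in anti-CD3-CD28 Teff cells, against 5.49 and 5.63 in control Teff cells (3.16 ± 0.19); both receptors are known from tissue-homing T cells. Ccr4 (2.13 ± 0.25), Ccr2 (2.12 ± 0.29) and Ccr10 (at least 1.89-fold higher) also rose. Ccr7, which brings T cells into lymph nodes, read 9.55 and 9.82 in anti-CD3-CD28 Teff cells, against 11.19 and 10.91 in control Teff cells (-1.37 ± 0.19), and S1pr1, which lets them out again, read 8.78 and 8.54 in anti-CD3-CD28 Teff cells, against 10.89 and 10.97 in control Teff cells (-2.27 ± 0.24). Both are quiescence genes too. Ccr6 (at least 1.41-fold lower) and Cxcr3 (-0.71 ± 0.20) also fell; 3 fell without anti-CD3-CD28 Teff B or control Teff 1. Of 19 chemokine ligands 7 rose, including Ccl3 (2.56 ± 0.40) and Ccl4 (1.71 ± 0.37), and 0 fell (0 also at an unadjusted p under 0.05); without control Teff B 4 rose, and without any other Teff array 3. Of 22 integrins and adhesion genes 4 rose, led by Itga2 (1.99 ± 0.36) and Itgb3 (1.70 ± 0.21), and 9 fell, led by Itga4 (median -0.27). The falls became 4 once the level trend was removed and 3 or 4 with 1 Teff array left out, and 2 rose without control Teff 1.

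**Figure D4:**
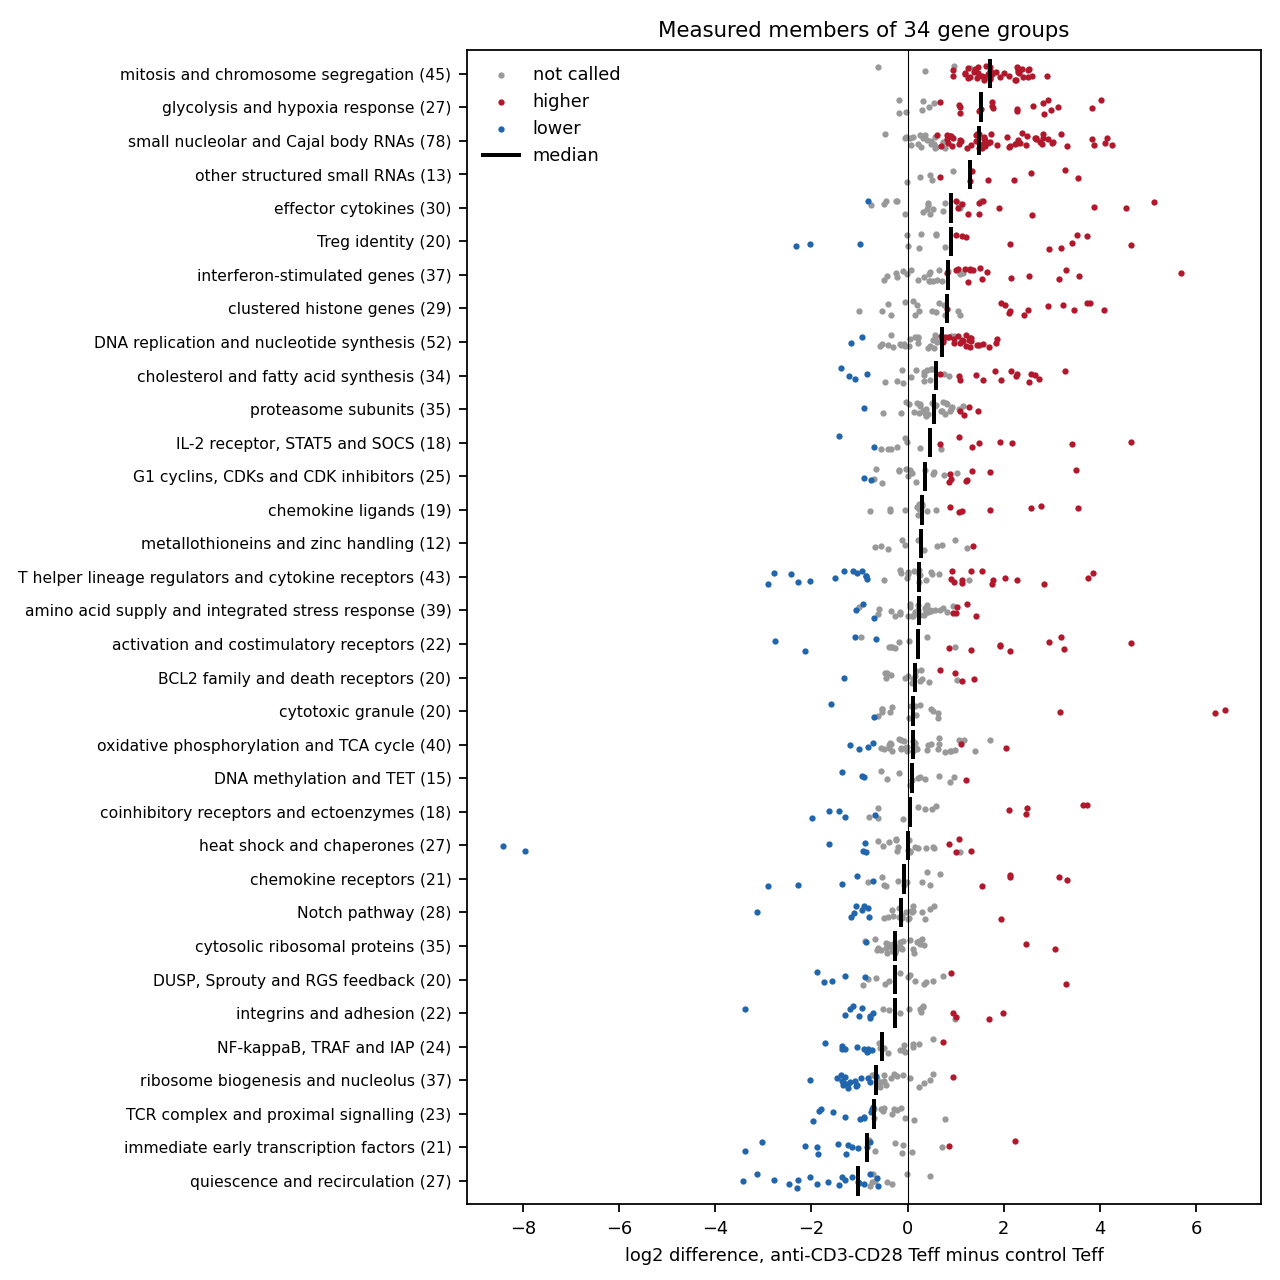
Differences in log2 intensity (anti-CD3-CD28 Teff minus control Teff) of the members of 34 gene groups, sorted by their medians (black bars), with the number of measured members in parentheses. Mitosis, glycolysis and the small nucleolar RNAs lie highest among the large groups, and quiescence, immediate early and TCR genes lie lowest.

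Most genes of the resting state fell. Of 27 quiescence and recirculation genes 19 fell and 0 rose (0 also at an unadjusted p under 0.05), with a median of -1.02; 12 fell without control Teff B. After quantile normalization 16 of the 27 fell, and 14 with the level trend removed. Foxo1, the factor that keeps T cells quiescent, read 7.49 and 7.57 in anti-CD3-CD28 Teff cells, against 9.98 and 10.01 in control Teff cells, a difference of -2.46 ± 0.18 (adjusted p = 1.3e-05). This is its brighter row, and its other row differed by -0.53 and was not called. Klf2, a factor that maintains recirculation, read 8.58 and 8.70 in anti-CD3-CD28 Teff cells, against 9.89 and 9.97 in control Teff cells (-1.29 ± 0.38; adjusted p = 0.0423). Il7r, the receptor for the survival cytokine interleukin 7, read 10.34 and 10.45 in anti-CD3-CD28 Teff cells, against 11.35 and 11.47 in control Teff cells (-1.02 ± 0.19; adjusted p = 0.00451). Control Teff arrays were the higher ones in all of these genes. Il6ra (-2.77 ± 0.20), Igfbp4 (-3.14 ± 0.33), Lef1 (-2.02 ± 0.19), Klf3 (-2.30 ± 0.24) and Foxp1 (-1.66 ± 0.21) fell too, and Slfn2 (-0.02 ± 0.19) and Cxcr4 (0.46 ± 0.31) were not called.

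Several T cell receptor components also fell. Of 23 genes of the TCR complex and its proximal signalling 11 fell and 0 rose (0 also at an unadjusted p under 0.05), with a median of -0.70; 6 fell once the level trend was removed, 5 without control Teff B and 6 without any 1 of the other 3 Teff arrays. Fyn, a kinase of the receptor, read 7.34 and 7.52 in anti-CD3-CD28 Teff cells, against 9.21 and 9.25 in control Teff cells (-1.80 ± 0.20; adjusted p = 0.00016), and Cd5, a restrainer of its signals, read 9.43 and 9.40 in anti-CD3-CD28 Teff cells, against 10.99 and 10.94 in control Teff cells (-1.55 ± 0.18). Of the other CD3 chains, Cd3d (0.79 ± 0.42) and Cd3g (-0.54 ± 0.28) were not called. Zap70 (-0.04 ± 0.20) and Cd28 (-0.51 ± 0.25) were not called.

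Immediate early genes are switched on within minutes of a signal, and many of those measured fell after 3 days. Of 21, 12 fell and 2 rose (median -0.84); 6 fell without control Teff B, 7 without control Teff 1 or anti-CD3-CD28 Teff 1, and 10 without anti-CD3-CD28 Teff B. After quantile normalization 9 of the 21 fell, and 9 with the level trend removed. Jun read 8.01 and 7.91 in anti-CD3-CD28 Teff cells, against 11.34 and 11.33 in control Teff cells (adjusted p = 1.08e-05). Fos, its partner in AP-1, read 6.92 and 7.09 in anti-CD3-CD28 Teff cells, against 10.12 and 9.95 in control Teff cells (-3.03 ± 0.24; adjusted p = 1.64e-05). Nr4a1, a nuclear receptor that reports T cell receptor signals, read 6.60 and 6.94 in anti-CD3-CD28 Teff cells, against 8.66 and 8.62 in control Teff cells (-1.87 ± 0.20; adjusted p = 0.000131). For these genes both control Teff arrays were the higher ones, by more than 1.5 log2 units. Egr1 (-1.28 ± 0.27), Egr2 (-1.16 ± 0.27), Egr3 (-1.02 ± 0.21), Nr4a3 (-1.24 ± 0.26) and Fosb (-2.13 ± 0.22) fell as well, whereas Ier3 (2.24 ± 0.30) and Fosl2 (0.87 ± 0.17) rose and Junb (0.09 ± 0.29) and Jund (-0.80 ± 0.25) were not called.

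Heat shock and chaperone genes moved in both directions. Of 27 genes 17 were not called and 6 fell, Hspa1a and Hspa1b among them; the rest of these, Dnajb1 (-1.63 ± 0.24), Hsph1 (-0.94 ± 0.22), Hspb1 (at least 1.43-fold lower) and Dnajb4, belong to the cytosolic stress response. The 4 that rose, Sdf2l1 (1.31 ± 0.22), Pdia6 (1.06 ± 0.24), Hsp90b1 (1.00 ± 0.22) and Xbp1 (0.86 ± 0.26), serve or govern protein folding in the endoplasmic reticulum. The median was 0.02 (-0.09 after scaling to a common median), and without control Teff 1 or B 1 rose and 3 fell; 1 rose without anti-CD3-CD28 Teff B and 7 after quantile normalization. Hspa8, the constitutive member of the family, differed by -0.50 ± 0.17 and was not called. A dimmer row of Hspb1 differed by 0.44 and was not called. Both the stress genes that fell and the immediate early genes that fell were higher in the cells that had not been cultured.

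In the NF-kappaB and Notch groups falls outnumbered rises, as they did over all genes (9.75% lower and 5.44% higher), and the counts depend on the fit. With the level trend removed, 1330 of all 22180 genes rose and 1268 fell. Of 24 NF-kappaB, TRAF and IAP genes 10 fell and 1 rose (median -0.53); 6 fell after quantile normalization, 5 with the level trend removed, and 4 to 7 with 1 Teff array left out. Rela, the activating subunit, read 8.02 and 8.43 in anti-CD3-CD28 Teff cells, against 9.84 and 10.03 in control Teff cells (-1.71 ± 0.19; adjusted p = 0.000179), and Rel, the subunit tied to T cell activation, differed by -1.36 ± 0.21. Of 28 Notch pathway genes 8 fell, 1 rose and 19 were not called (median -0.14); 5 fell after quantile normalization, 2 with the level trend removed and 2 to 4 with 1 Teff array left out. Notch1 read 8.45 and 8.53 in anti-CD3-CD28 Teff cells, against 8.62 and 8.58 in control Teff cells and was not called (adjusted p = 0.774). Dtx1, a Deltex regulator of Notch known from unresponsive T cells, read 6.50 and 6.26 in anti-CD3-CD28 Teff cells, against 9.59 and 9.41 in control Teff cells (-3.12 ± 0.20; adjusted p = 4.51e-06), and Rbpj, the DNA-binding partner of Notch, rose (1.94 ± 0.21).

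Genes of ribosome production split by product. Of 37 protein-coding genes of ribosome biogenesis 17 fell and 1 rose (median -0.65); 11 fell after quantile normalization, 10 with the level trend removed, 7 without control Teff B or anti-CD3-CD28 Teff 1, and 9 without control Teff 1. Polr1b, a core subunit of RNA polymerase I, read 5.59 and 5.74 in anti-CD3-CD28 Teff cells, against 7.24 and 7.03 in control Teff cells (-1.47 ± 0.21; adjusted p = 0.000853). Nol6, a nucleolar processing factor, read 5.98 and 6.55 in anti-CD3-CD28 Teff cells, against 8.35 and 8.25 in control Teff cells (-2.04 ± 0.23), and Npm1, or nucleophosmin, was the one that rose (0.95 ± 0.28). A dimmer row of Npm1 differed by 0.40 and was not called. Of 35 cytosolic ribosomal protein genes 2 rose and 1 fell (median -0.25). The share called was 8.57%, below the 15.2% of all genes. The 2 that rose, Rps20 and Rps18, have other rows that did not: 0.26 for Rps20, and -0.07 and -0.79 for Rps18. Rpl4 fell (-0.87 ± 0.17) on the row used, while its other row rose by 3.27.

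Most of the RNAs that guide ribosomal RNA modification rose. Of 78 small nucleolar and Cajal body RNA genes 57 rose and 0 fell (0 also at an unadjusted p under 0.05), with a median of 1.48; 43 to 49 rose with 1 Teff array left out. These genes were grouped by name, and the members named here were chosen after their values were seen. Snora20, of the pseudouridylation-guiding class, read 10.77 and 10.59 in anti-CD3-CD28 Teff cells, against 6.86 and 6.81 in control Teff cells, a difference of 3.85 ± 0.24 (adjusted p = 4.51e-06). Snord52, of the methylation-guiding class, read 10.60 and 11.02 in anti-CD3-CD28 Teff cells, against 6.55 and 6.75 in control Teff cells (4.16 ± 0.39; adjusted p = 4.94e-05). Snord118, the U8 RNA needed for large-subunit maturation, read 11.68 and 12.20 in anti-CD3-CD28 Teff cells, against 8.04 and 7.62 in control Teff cells (4.11 ± 0.45). The log2 of the summed signal of all 78 was 18.74 and 18.73 in anti-CD3-CD28 Teff arrays, against 17.78 and 17.76 in control Teff arrays. Other structured RNAs, a group put together after the data were seen, followed: 8 of 13 rose and 0 fell (0 also at an unadjusted p under 0.05), including the Y RNAs Rny3 (3.55 ± 0.23) and Rny1 (2.58 ± 0.19) and the minor spliceosome RNA Rnu12 (1.68 ± 0.19), while the transcription regulator Rn7sk was not called (-0.01 ± 0.17). With 1 Teff array left out 6 (anti-CD3-CD28 Teff B) or 4 rose.

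Replication-dependent histone genes, also grouped after the data were seen, rose in part. Of 29 clustered genes 13 rose and 0 fell (1 at an unadjusted p under 0.05), with a median of 0.83. H2bc3 read 10.49 and 10.49 in anti-CD3-CD28 Teff cells, against 6.70 and 6.69 in control Teff cells (3.80 ± 0.43; adjusted p = 0.000204), and H1f5, a linker histone, read 10.15 and 10.09 in anti-CD3-CD28 Teff cells, against 6.77 and 6.53 in control Teff cells (3.46 ± 0.41). Members of this family are close copies, and signal may be shared between them. H1f2 (0.24 ± 0.45) and H4c14 (-0.52 ± 0.55) were not called.

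Of 483 microRNA genes 29 rose and 21 fell, beside 5.44% higher and 9.75% lower among all genes, and 341 lay below the bound in both groups; 16 rose after quantile normalization, 73 without the OX40L-JAG1 Teff arrays, and 11 to 21 with 1 Teff array left out. The files do not say whether these rows read the mature RNA, its hairpin or the longer transcript. Mir142, a gene active throughout blood cells, read 10.75 and 11.14 in anti-CD3-CD28 Teff cells, against 7.13 and 7.44 in control Teff cells, a difference of 3.66 ± 0.40 or 12.6-fold (adjusted p = 0.000142). Mir1983 read 8.88 and 8.82 in anti-CD3-CD28 Teff cells, against 3.34 and 3.24 in control Teff cells, at least 15.8-fold higher. Replicates lay close together in both. The largest falls were those of Mir5104 (at least 4.11-fold lower) and Mir505 (-2.56 ± 0.60). The mature RNAs of these 4 genes are shown with the seed, bases 2 to 8, in capitals, as RefSeq gives them on GRCm38.p6; no seed is shared between them. The products of Mir142 lie at chr11:87756867-87756887, plus strand, and chr11:87756903-87756925, plus strand, that of Mir1983 at chr13:21896930-21896950, minus strand, that of Mir5104 at chr10:7836441-7836464, plus strand, and the main arms of Mir505 at chrX:60394451-60394473, minus strand, and chrX:60394416-60394437, minus strand.
mmu-miR-142a-5p: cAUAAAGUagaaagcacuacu
mmu-miR-142a-3p: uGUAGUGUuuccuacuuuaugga
mmu-miR-1983: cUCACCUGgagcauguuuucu
mmu-miR-5104: cUGUGCUAgugagguggcucagca
mmu-miR-505-5p: gGGAGCCAggaaguauugauguu
mmu-miR-505-3p: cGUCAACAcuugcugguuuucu

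Several genes that mark regulatory T cells rose in these Foxp3- cells. Of 20 Treg identity genes 10 rose and 3 fell (median 0.90), while Foxp3 itself differed by -0.01 ± 0.21 (adjusted p = 0.982). Lrrc32, or GARP, which displays latent TGF-beta on the cell surface, read 7.89 and 8.15 in anti-CD3-CD28 Teff cells, against 4.42 and 4.57 in control Teff cells, at least 8.9-fold higher (adjusted p = 4.95e-06). Il2ra, Ctla4, Tnfrsf4, Tnfrsf9 and Tnfrsf18, described above, belong to the same list, and activated T cells are known to share them. Izumo1r (-2.32 ± 0.27), or folate receptor 4, Gpr83 (at least 2.86-fold lower) and Nrp1 (-1.0) fell, and Ikzf2, or Helios (0.24 ± 0.26), and Ikzf4, or Eos (0.02 ± 0.18), were not called.

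Markers of other cells moved with some of these results. Of 20 immunoglobulin segments and constant regions, taken by name, all 20 fell, with a median of -3.66 and a range of -6.19 to -1.33. Of 14 B cell and plasma cell markers 7 fell and 0 rose (0 also at an unadjusted p under 0.05), among them Jchain, Cd79a (-1.92 ± 0.25) and Ms4a1 (at least 1.74-fold lower), and 4 fell with any 1 of the 4 Teff arrays left out. The log2 of their summed signal was 8.72 and 8.69 in anti-CD3-CD28 Teff arrays, against 10.55 and 10.54 in control Teff arrays. Of 6 erythroid markers 4 fell, led by Car1 (-2.91 ± 0.40) and Car2 (-2.50 ± 0.53), with log2 summed signals of 8.20 and 8.33 in anti-CD3-CD28 Teff arrays, against 10.58 and 10.66 in control Teff arrays; 2 fell without anti-CD3-CD28 Teff 1 or control Teff 1. Of 15 neutrophil markers 4 fell, including the granule genes Mpo (at least 7.37-fold lower) and Elane (-2.75 ± 0.41), and 1, Ly6g, rose (at least 2.97-fold higher); 2 fell without control Teff B. The other 10 neutrophil markers were not called, among them S100a8 (-0.49 ± 0.37) and S100a9 (-0.06 ± 0.33). Log2 summed signals of the neutrophil markers were 8.73 and 8.89 in anti-CD3-CD28 Teff arrays, against 9.74 and 9.77 in control Teff arrays. Control Teff arrays thus held more summed signal of the B cell, erythroid and neutrophil markers, though not of every marker. The part of these cells in the falls was not tested.

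Some platelet markers rose. Ppbp read 7.72 and 7.76 in anti-CD3-CD28 Teff cells, against 4.13 and 4.27 in control Teff cells, and Pf4 read 6.85 and 6.82 in anti-CD3-CD28 Teff cells, against 4.17 and 3.94 in control Teff cells; both encode platelet chemokines and belong to the 7 chemokine ligands that rose. Of 6 platelet markers 3 rose and 0 fell (0 also at an unadjusted p under 0.05), 1 with any 1 of the 4 Teff arrays left out, while Gp9 (-0.27 ± 0.28), Gp5 (0.05 ± 0.23) and Treml1 (0.12 ± 0.28) were not called. Log2 summed signals were 9.0 and 9.03 in anti-CD3-CD28 Teff arrays, against 7.60 and 7.67 in control Teff arrays, and their part in the rise of the chemokine ligands was not tested. Beside the granzymes, the natural killer markers Ncr1, Klrb1c, Klre1 and Klri2 lay below the bound in both groups, and Klrd1 (-0.40 ± 0.56), Eomes (0.66 ± 0.21) and Tyrobp (-0.17 ± 0.69) were not called. Cd8a read 5.78 and 6.06 in anti-CD3-CD28 Teff cells, against 4.80 and 4.79 in control Teff cells and was called higher, but not when control Teff 1, control Teff B or anti-CD3-CD28 Teff B was left out, and Cd8b1 was not called (-0.75 ± 0.33). Of 15 monocyte, macrophage and dendritic cell markers 1 fell, Itgam (at least 1.64-fold lower), and 12 lay below the bound in anti-CD3-CD28 Teff cells and 10 in control Teff cells. The share called was 6.67%, below the 15.2% of all genes. Of the 9 CD4 T cell markers 4 fell and 0 rose (0 also at an unadjusted p under 0.05), with log2 summed signals of 13.34 and 13.32 in anti-CD3-CD28 Teff arrays, against 14.19 and 14.27 in control Teff arrays.

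The Y-linked genes differed as well. Eif2s3y, given above, Kdm5d and Uty fell and lay below the bound in anti-CD3-CD28 Teff cells. Kdm5d, a histone demethylase, read 3.56 and 3.00 in anti-CD3-CD28 Teff cells, against 6.40 and 6.18 in control Teff cells. Uty, a Y-linked member of another demethylase family, read 3.86 and 3.72 in anti-CD3-CD28 Teff cells, against 6.38 and 6.62 in control Teff cells. Xist, the RNA of the inactive X chromosome, read 10.19 and 10.46 in anti-CD3-CD28 Teff cells, against 10.71 and 10.78 in control Teff cells and was not called. The same 3 Y-linked genes were lower in anti-CD3-CD28 Treg than in control Treg arrays, with differences of -3.18, -3.44 and -3.41. Eif2s3y read 3.78 and 3.68 in anti-CD3-CD28 Treg arrays, below the bound, so its difference there is not exact. The labels used here do not give the sex of the mice, and sex and treatment cannot be told apart where donors differed in sex.

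The Teff response was then set beside the Treg response, anti-CD3-CD28 Treg minus control Treg, which uses none of the same arrays. The difference between the 2 responses was called for 2904 genes (13.1%), 653 of them with the more positive response in Teff cells and 2251 in Treg cells. In Treg cells 2230 genes (10.1%) were called, 1792 higher and 438 lower. Of the 3369 genes called in Teff cells 1741 had the same sign in Treg cells and 682 were called there too. Without the OX40L-JAG1 Teff arrays 6869 differences were called, and quantile normalization left 1071. With 1 array of the 4 groups left out, 971 (control Teff B), 1145 (control Teff 1), 1249 (anti-CD3-CD28 Teff 1), 2205 (anti-CD3-CD28 Teff B), 1242 (control Treg B), 1695 (control Treg 1), 1124 (anti-CD3-CD28 Treg B) or 1132 (anti-CD3-CD28 Treg 1) were called.

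Mitotic and glycolytic genes had positive median responses in both cell types. The median response of the 45 mitotic genes was 1.71 in Teff cells and 2.33 in Treg cells, and 8 of them differed between the responses. For glycolysis the medians were 1.54 in Teff cells and 2.21 in Treg cells, with 5 of 27 differing, and for interferon-stimulated genes 0.84 in Teff cells and 1.23 in Treg cells, with 8 of 37 differing. Cholesterol and fatty acid genes had medians of 0.58 in Teff cells and 1.65 in Treg cells, with 12 of 34 differing, such as Scd1, at 2.66 in Teff cells and 5.59 in Treg cells (difference -2.93 ± 0.45, adjusted p = 0.00251). Some cytokine genes and Il2ra had the larger response in Teff cells. Il10 stood at 5.12 in Teff cells (at least 4.27) and 1.28 in Treg cells (difference 3.84 ± 0.35, adjusted p = 0.000108). Il4 stood at 3.89 in Teff cells (at least 3.77) and 1.16 in Treg cells (difference 2.73 ± 0.39, adjusted p = 0.00185). For both, control Teff cells lay below the bound, so these differences are not exact. Il2ra stood at 4.64 in Teff cells and 1.71 in Treg cells (difference 2.94 ± 0.39, adjusted p = 0.00126). Control Treg arrays already read 6.17 and 6.19 for Il10, and 11.19 and 11.24 for Il2ra. In anti-CD3-CD28 Treg arrays Il2ra read 12.86 and 12.99, above the anti-CD3-CD28 Teff arrays. Il12rb2 rose more in Treg cells, at 3.86 in Teff cells and 6.51 in Treg cells (difference -2.65 ± 0.40, adjusted p = 0.00229).

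Several groups with many falls in Teff cells had medians near or above 0 in Treg cells. Upper quartiles, lower in anti-CD3-CD28 than in control Teff arrays, moved the other way in Treg cells. They were 7.058 and 7.073 in anti-CD3-CD28 Treg arrays, against 6.791 and 6.745 in control Treg arrays. The 2904 differences of response became 1136 with the level trend removed and 1071 after quantile normalization. The part of this shift in the group counts below was not tested. Quiescence genes had a median of -1.02 in Teff cells and -0.15 in Treg cells, with 15 of 27 differing. On its brighter row, Foxo1 stood at -2.46 in Teff cells and 0.09 in Treg cells (difference -2.55 ± 0.26, adjusted p = 0.000218). The other row of Foxo1 differed by -0.53 in Teff cells and was not called. TCR genes had medians of -0.70 in Teff cells and 0.20 in Treg cells, with 12 of 23 differing, and Cd4 stood at -1.97 in Teff cells and 0.20 in Treg cells (adjusted p of the difference = 0.00192). Rela stood at -1.71 in Teff cells and 0.48 in Treg cells (adjusted p of the difference = 0.000886), and Rgs1, an inhibitor of chemokine receptor signals, at 3.30 in Teff cells and -0.21 in Treg cells (adjusted p of the difference = 0.000965). The heat shock gene Hspa1a stood at -7.96 in Teff cells and -7.50 in Treg cells, and the difference, -0.46 ± 0.33, was not called (adjusted p = 0.385). Hspa1a lay below the bound in both anti-CD3-CD28 groups, so both falls are only bounds and their sizes cannot be compared.

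Most small nucleolar RNAs rose in Teff cells and fell in Treg cells. Their median response was 1.48 in Teff cells and -2.09 in Treg cells. In Treg cells 70 of 78 fell and 0 rose (0 also at an unadjusted p under 0.05 in limma), and 75 of 78 differed between the responses. Snora20, given above for Teff cells, read 5.91 and 6.28 in anti-CD3-CD28 Treg cells, against 8.65 and 9.11 in control Treg cells, so its order of groups was turned round in Treg cells. The other structured RNAs showed the same turn, with a median of 1.31 in Teff cells and -1.88 in Treg cells and 11 of 13 differing, and clustered histone genes had medians of 0.83 in Teff cells and -0.21 in Treg cells, with 11 of 29 differing.

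**Figure D5:**
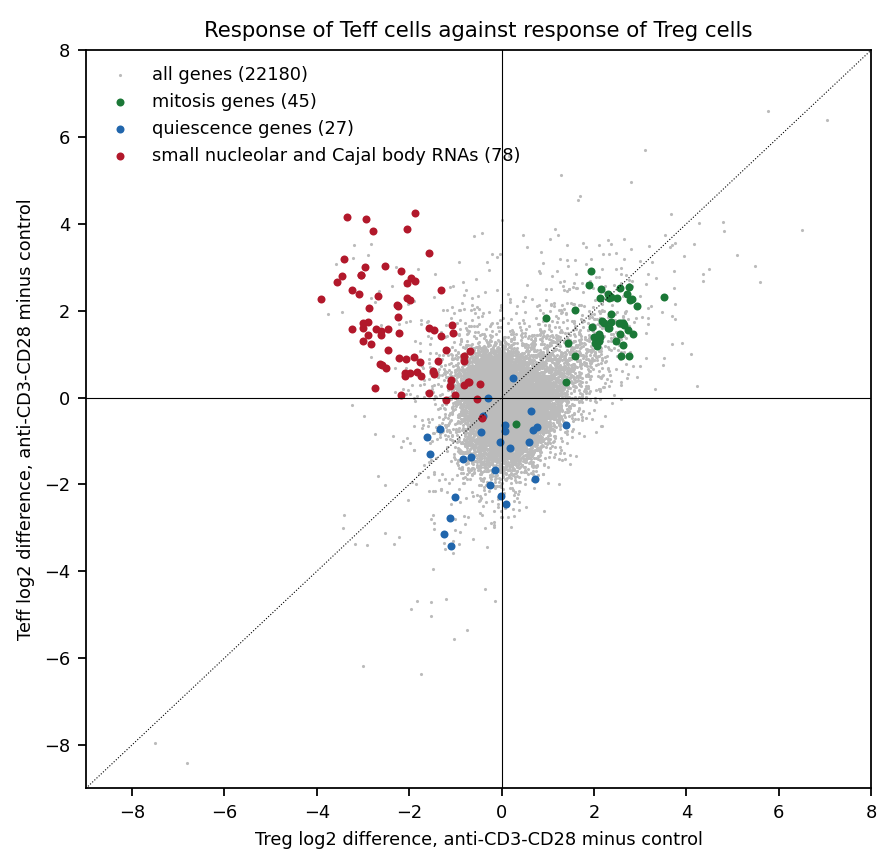
Response of each gene in Teff cells (anti-CD3-CD28 minus control, log2, vertical axis) against its response in Treg cells (horizontal axis), with mitosis (45), quiescence (27) and small nucleolar and Cajal body RNA (78) genes in colour. Mitotic genes lie high on both axes, and most small nucleolar RNAs lie above 0 for Teff and below 0 for Treg cells.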

How the data were processed

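Total RNA of the sorted cells was labelled and hybridised to Affymetrix Mouse Gene 2.0 ST arrays, 12 arrays in 6 groups of 2. The authors deposited one table of log2 intensities normalized by RMA, per the submitters' processing notes; no source used here gives its version. RMA corrects background, normalizes between arrays and summarizes probes, so that levels are relative and a change in total RNA per cell is not seen. No raw scans were used, and no detection calls were given.

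Of 41345 rows, 23521 carried exactly 1 gene symbol, of which 23328 matched the RefSeq gene table by Entrez ID. Each of 22180 genes was represented by its brightest row, judged by the mean of the 12 arrays; 1082 genes had several rows. limma 3.58.1 in R 4.3.3 fitted 1 mean per group over all 12 arrays (6 residual degrees of freedom) with empirical Bayes shrinkage, Benjamini-Hochberg adjustment over all genes and a threshold of 0.05. Every adjusted p in the text comes from this fit. Where a group averaged under 4.87, the lowest median of an array, the fold is only a bound; Python 3.11.15 drew the figures and searched sequences. The procedure was tested on simulated data. Of 100 genes given a log2 change of 1, the fit called 14, and of 100 given a change of 2 it called 91. No other gene of the 22180 was changed there, whereas 3369 were called in the data. The adjustment is stricter when few genes change, so these shares may be lower than in the data. A gene that was not called is still not shown to be unchanged.

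The members and the 36 gene lists and 11 marker lists were chosen with earlier results of these data known; 1435 of 1512 listed genes were measured. Genes were named by rule: the 12 largest called rises and falls with separate groups (predicted, clone-named, segment and small RNA genes other than microRNAs aside), up to 5 called members a direction and 3 bright uncalled members of each list, a fixed set of T cell genes, 6 differences of response each way and 6 microRNAs each way. The named small nucleolar RNAs and other list members beyond these limits were chosen after their values were seen, for being well known. Alternatives were the replicate block, other scalings, other row choices, array weights, fewer arrays, a test against a change of 1 and each array left out. The labels share the numbers 1 and B between groups, but same-numbered samples did not deviate together (correlations -0.0693 to 0.182), so these were not treated as pairs.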

Additional observations from a re-analysis of the deposited data

Results flagged for a closer look

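The difference between the Teff and Treg responses, anti-CD3-CD28 minus control in each, was tested in one limma fit and called for 2904 genes. With small nucleolar, Cajal body and U RNA genes and predicted genes left aside by the naming rule, the 6 most positive differences were those of Med24 (6.70), Rps20 (6.64), Rny3 (6.37), Ptcd3 (5.70), Wdyhv1 (5.43) and Mir1983 (5.41), all on the log2 scale. Some of the genes left aside had differences as large, among them Snora20, at 6.63. Med24, a Mediator subunit, stood at 3.51 in Teff cells and -3.18 in Treg cells (adjusted p of the difference = 0.000826). Rps20, a ribosomal protein of the small subunit, stood at 3.07 in Teff cells and -3.57 in Treg cells, and the Y RNA gene Rny3 at 3.55 in Teff cells and -2.83 in Treg cells. Ptcd3 stood at 1.93 in Teff cells and -3.77 in Treg cells, and Wdyhv1 at 1.97 in Teff cells and -3.46 in Treg cells.

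For 4 of these genes the array holds a second, dimmer row that gave another Teff difference: -0.13 for Med24, 0.26 for Rps20, -0.52 for Ptcd3 and -1.13 for Wdyhv1. The gene table lists 1 small RNA gene inside Ptcd3. Which transcript each row reads was not tested. Mir1983 stood at 5.56 in Teff cells (at least 3.98, with control Teff cells below the bound) and 0.15 in Treg cells, where both groups lay below it.

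By the same rule the 6 most negative differences were those of H2-Ab1 (-3.96), Mir721 (-3.22), Gpr33 (-3.13), Ehd3 (-3.11), Mt2 (-3.10) and Gatc (-3.07). H2-Ab1, a chain of MHC class II, stood at 0.27 in Teff cells and 4.24 in Treg cells (adjusted p of the difference = 0.000643). Mt2, a zinc-binding metallothionein, stood at 1.00 in Teff cells and 4.10 in Treg cells, and Gpr33, an orphan receptor, below the bound in both Teff groups, rose in Treg cells by 3.33. The microRNA gene Mir721 stood at -1.99 in Teff cells (a fall of at least 1.53, with anti-CD3-CD28 Teff cells below the bound) and 1.23 in Treg cells. Ehd3 stood at -3.43 in Teff cells and -0.32 in Treg cells, and Gatc, of the mitochondrial glutamyl-tRNA amidotransferase, at -2.53 in Teff cells and 0.54 in Treg cells.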

How the results depend on the processing

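The 3369 genes called changed became 6431 with array weights, 5477 over all rows of the table, 6421 without the OX40L-JAG1 Teff arrays, 5638 with only the compared arrays and 299 in a test against a change of 1. The 2904 differences of response became 1071 after quantile normalization, 7344 with array weights, 4498 over all rows, 6869 without the OX40L-JAG1 Teff arrays, 7022 with only the compared arrays, 161 against a change of 1 and 1136 with the level trend removed. Leaving out 1 array gave 1425 to 6421 changed genes and 971 to 6869 differences of response. With the replicate block the counts were 3240 and 2691; the pairing rests only on shared labels, and 3 of 254 called genes described in the text lost their call. Of those 254, 24 lost it after quantile normalization, 9 after scaling to a common median, 29 with the level trend removed, 9 with the mean of all rows, 17 over all rows and 152 against a change of 1. Without control Teff B 77 lost it, without control Teff 1 65, without anti-CD3-CD28 Teff 1 60 and without anti-CD3-CD28 Teff B 50; 0 lost it with trend and robust shrinkage, array weights or the compared arrays alone. Differences that changed sign were those of Foxp3, to 0.032 with the level trend removed and 0.061 without anti-CD3-CD28 Teff 1 (-0.085 without anti-CD3-CD28 Teff B), Notch1, to 0.065 by quantile normalization and 0.229 when the level trend was removed, and Gpr33, to -0.0037 without anti-CD3-CD28 Teff B (0.41 without anti-CD3-CD28 Teff 1), none of which was called, and Rpl4, to 1.20 with the mean of its rows. The causes of these shifts were not tested. Where a group lay below the lowest array median, signal over background limits the value to a bound.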

Other observations

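Further gene groups showed smaller or mixed changes in anti-CD3-CD28 Teff cells. Of 20 genes of DUSP, Sprouty and RGS feedback 2 rose and 5 fell (median -0.27). Rgs1 read 9.91 and 10.07 in anti-CD3-CD28 Teff cells, against 6.72 and 6.65 in control Teff cells (3.30 ± 0.31), while Rgs2, which dampens Gq signals, read 7.05 and 7.38 in anti-CD3-CD28 Teff cells, against 9.04 and 8.88 in control Teff cells (-1.75 ± 0.25). A dimmer row of Rgs2 differed by 0.28 and was not called. Dusp1 (-1.89 ± 0.36), a phosphatase of MAP kinases, fell with the immediate early genes, and Dusp4 (0.90 ± 0.22), a nuclear relative, rose. Of 20 genes of the BCL2 family and death receptors 4 rose and 1 fell (median 0.16). The share called was 25.0%, beside 15.2% of all genes. The killers Bcl2l11, or BIM (1.39 ± 0.20), and Pmaip1, or NOXA (1.13 ± 0.21), rose together with the protector Bcl2l1, or BCL-XL (0.68 ± 0.18). Casp8, the initiator caspase, fell (-1.32 ± 0.25). Without control Teff 1, 2 rose.

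Of 15 genes of DNA methylation and TET enzymes 1 rose and 3 fell (median 0.10, or -0.002 after scaling to a common median). The share called was 26.7%, beside 15.2% of all genes. Uhrf1, which recruits the maintenance methyltransferase to replicated DNA, rose (1.21 ± 0.21), and Tet1 (-1.35 ± 0.19), Tet3 (-0.95 ± 0.18) and Kdm6b (-0.90 ± 0.18), which remove methyl marks, fell; 1 fell with the level trend removed. Dnmt1 was not called in Teff cells (0.23 ± 0.19), nor was a dimmer row of Kdm6b, which differed by 0.02. Of 12 genes of metallothioneins and zinc handling 1 rose and 0 fell in limma (at an unadjusted p under 0.05, 5 were higher and 2 lower). The share called was 8.33%, below the 15.2% of all genes. In Treg cells 7 of these genes rose and 0 fell, and 6 differed between the responses.

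Of 16010 rows without a gene name 2282 were called, 676 higher and 1606 lower, and of 1814 rows with several symbols 222 were called, 128 higher and 94 lower. The median genomic span of protein-coding genes was 18668 bases for those called higher, 32821 bases for those called lower and 18692 bases for all. The median GC content of the promoter windows was 58.7% for genes called higher, 62.0% for genes called lower and 56.3% for all.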
